A study of Mus musculus with 11 samples.

Results

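The transcripts described here are those of 9 genes of myelin and of mature oligodendrocytes, Mbp, Mog, Mag, Mobp, Cnp, Mal, Cldn11, Ugt8a and Opalin, chosen by name from the 24421 genes listed for each sample. All 9 passed the filter on low counts, as did 13875 genes in all. RNA sequencing had been performed on FACS-isolated eGFP-positive astrocytes of 16-week-old BAC Aldh1l1-eGFP mice of the C57BL/6 strain, with 3 samples from the olfactory bulb (OB), 3 from the hippocampus (HC), 2 from the cortex (CX) and 3 from the brainstem (BS). In these mice a bacterial artificial chromosome drives eGFP from the promoter of Aldh1l1, a gene of folate metabolism used as an astrocyte marker, and the cells were gated on eGFP alone as far as the sources state. All 4 groups share the transgene, and unsorted tissue was not analysed here. Both sexes were used, the sex of each sample is not labelled, and the sources do not say whether samples of a region came from separate animals, so that p-values measure only the spread between these samples, which may be technical.

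Myelin is the multilayered membrane that oligodendrocytes wrap around axons in the brain and that Schwann cells form in peripheral nerves. The brainstem is rich in myelinated tracts. Astrocytes do not make myelin, and the 9 genes are used as markers of cells of the oligodendrocyte lineage. In sorted bulk samples, fewer cells of a type and less RNA of a gene per cell cannot be told apart, nor can RNA inside a sorted cell be told from RNA or debris of another cell.

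The members were detected in every region, at the lowest level in the OB and mostly at the highest in the BS. Their values summed to 7924 ± 2682 for OB (SD, n = 3), 16867 ± 1450 for CX (SD, n = 2), 27465 ± 10037 for HC (SD, n = 3) and 56714 ± 16567 for BS (SD, n = 3). A value is the read count of a gene divided by the size factor of its sample. As a share of all reads counted on genes, the members took at most 0.213% in an OB sample and 0.254% in a CX sample. That share reached 0.754% in an HC sample and was 0.739% to 1.26% in BS samples, so HC and BS overlapped on it. The summed values did not overlap, at most 34790 in the HC and at least 43138 in the BS. All reads include those of Rn45s, a ribosomal RNA precursor, at 25.6% in BS replicate 1 and 2.36% in HC replicate 1. By region means, OB was lowest for 9 of 9 members and CX next for 9 of 9, and BS was highest for 8 of 9, the exception being Cldn11. The 7 members that passed the OB test were between 1.82-fold (Cnp) and 4.44-fold (Mog) lower in the OB than in the other samples pooled.

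Promoters are shown for the 4 members in whose upstream window a script found a core motif of the SOX family (ACAAAG or its reverse complement CTTTGT) or of MYRF (CTGGCAC or GTGCCAG). SOX10 and MYRF are transcription factors known for driving myelin genes. Windows were the 250 bases before each RefSeq start (GRCm38.p6). Of the 9 members, 8 had an entry, with 10 windows in all, and Mbp had none. The sequences are written 5′ to 3′ on the strand of the gene, with the motifs in capitals, and end before the first annotated exon.
Mobp, chr9:120149492-120149706, plus strand: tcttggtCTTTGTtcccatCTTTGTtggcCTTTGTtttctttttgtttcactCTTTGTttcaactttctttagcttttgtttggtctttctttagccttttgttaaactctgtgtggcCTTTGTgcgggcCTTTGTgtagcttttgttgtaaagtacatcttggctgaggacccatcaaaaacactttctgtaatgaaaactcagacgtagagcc
Mag, chr7:30914923-30915172, minus strand: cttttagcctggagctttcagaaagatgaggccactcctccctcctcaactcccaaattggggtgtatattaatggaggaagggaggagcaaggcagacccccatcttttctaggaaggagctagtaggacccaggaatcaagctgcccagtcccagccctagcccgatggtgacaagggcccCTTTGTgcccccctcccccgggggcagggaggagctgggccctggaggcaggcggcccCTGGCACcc
Cnp, chr11:100574689-100574903, plus strand: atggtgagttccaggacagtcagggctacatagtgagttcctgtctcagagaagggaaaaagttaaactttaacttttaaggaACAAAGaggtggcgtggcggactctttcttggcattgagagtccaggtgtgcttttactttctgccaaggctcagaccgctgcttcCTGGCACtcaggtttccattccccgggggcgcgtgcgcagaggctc
Opalin, chr19:41077114-41077363, minus strand: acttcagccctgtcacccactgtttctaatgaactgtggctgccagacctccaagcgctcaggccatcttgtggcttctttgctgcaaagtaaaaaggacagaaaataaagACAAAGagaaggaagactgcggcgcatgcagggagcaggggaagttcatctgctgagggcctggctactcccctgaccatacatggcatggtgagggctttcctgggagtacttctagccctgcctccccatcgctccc
The Mobp window held 6 SOX cores, from 243 to 120 bases before the start and all in the reverse orientation. Mag has 3 RefSeq starts. In the window shown a SOX core lay 67 and a MYRF core 9 bases before the start, the same cores lay 126 and 68 bases before another start, and the window of the remaining start held neither. In Cnp a SOX core lay 167 and a MYRF core 81 bases before the start. Opalin held 1 SOX core, 139 bases before the start. Of all 32851 windows of this length, 16.5% held the SOX core and 4.19% the MYRF core. These motifs were kept after several had been looked at, and a match is a description of letters, not of a bound site. No match was found in the windows of Mog, Mal, Cldn11 and Ugt8a.

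Mbp, Mobp and Mal are genes of compact myelin. Mbp encodes myelin basic protein, which holds the cytoplasmic faces of the membrane together, and lies on chromosome 18 from 82475146 to 82585637 (GRCm38, plus strand). Its values in replicates 1 to 3 were 8301, 6602 and 3846 in the OB, 29074, 25321 and 13413 in the HC, 15028 and 12396 in the CX, with 37477, 45114 and 65569 in the BS. Every OB value lay below every other value and every BS value above every other. Mbp made up 75.6% to 87.2% of the member sum of a sample, so that the sum follows this gene. Without it the sum was 1675 ± 438 for OB (SD, n = 3), 3154 ± 412 for CX (SD, n = 2), 4862 ± 1968 for HC (SD, n = 3) and 7327 ± 2041 for BS (SD, n = 3).

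Mobp encodes myelin-associated oligodendrocyte basic protein, a small basic protein of the same compartment (chromosome 9, 120149707 to 120181484, plus strand). The values of Mobp were 655, 441 and 296 in the OB, 2471, 2070 and 991 in the HC, 847 and 892 in the CX, with 2396, 3065 and 4039 in the BS. The OB values were again the lowest of all, while the BS and HC values overlapped, since BS replicate 1 lay below HC replicate 1. Its exons overlap those of the annotated gene Gm38642 on the same strand, so reads shared with that gene cannot be assigned. Mal encodes a proteolipid that takes part in membrane sorting to myelin (chromosome 2, 127633226 to 127656695, minus strand). The values of Mal were 419, 306 and 191 in the OB, 1156, 1351 and 459 in the HC, 519 and 774 in the CX, with 1060, 1168 and 1703 in the BS. All 3 OB values lay below every other value, and HC replicates 1 and 2 lay among the BS values.

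Ugt8a encodes the enzyme that makes galactosylceramide, the main glycolipid of myelin (chromosome 3, 125865271 to 125938619, minus strand). The values of Ugt8a were 138, 122 and 52.2 in the OB, 457, 586 and 173 in the HC, 187 and 261 in the CX, with 655, 639 and 1065 in the BS. Like Mbp, it had every OB value lowest and every BS value highest. Cnp encodes a phosphodiesterase of the cytoplasm-containing parts of myelin (chromosome 11, 100574904 to 100591729, plus strand). The values of Cnp were 779.7, 718 and 631 in the OB, 1196, 1511 and 866 in the HC, 1093 and 1253 in the CX, with 1115, 1519 and 2075 in the BS. The OB values were the lowest, but the span was the narrowest of the members, and the BS mean was 2.21 times the OB mean, against 7.90 times for Mbp. Exons of Cnp overlap those of Dnajc7 on the opposite strand, and it is not stated whether counting used strand.

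Mag encodes myelin-associated glycoprotein, an adhesion molecule facing the axon (chromosome 7, 30899176 to 30914873, minus strand). The values of Mag were 36.9, 18.2 and 14.5 in the OB, 58.7, 142 and 35.6 in the HC, 77.9 and 76.7 in the CX, with 97.8, 114 and 168 in the BS. HC replicate 3 lay below OB replicate 1, so OB and HC overlapped for this gene. Mog encodes myelin oligodendrocyte glycoprotein, on the outermost surface of the sheath (chromosome 17, 37010743 to 37023398, minus strand). The values of Mog were 29.3, 11.8 and 32.3 in the OB, 101, 190.0 and 29.4 in the HC, 80.4 and 81.3 in the CX, with 132, 110.2 and 239.9 in the BS. The 2 CX values lay close together, whereas those of the HC spanned 6.47-fold and reached down to the level of the OB.

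Cldn11 encodes the claudin of the tight junctions between myelin layers (chromosome 3, 31149920 to 31164324, plus strand). The values of Cldn11 were 52.1, 30.0 and 26.4 in the OB, 227, 343 and 54.3 in the HC, 51.5 and 75.1 in the CX, with 146, 50.1 and 253 in the BS. It was the member whose HC mean exceeded its BS mean, and 1 BS value lay below OB replicate 1. Opalin encodes a transmembrane protein of oligodendrocytes (chromosome 19, 41061710 to 41077113, minus strand). The values of Opalin were 9.77, 15 and 0 in the OB, 49.3, 68.5 and 2.94 in the HC, 7.54 and 32.2 in the CX, with 58.9, 50.1 and 61.0 in the BS. Opalin had the lowest values of the members. No read was counted in OB replicate 3, where the exact Poisson 95% interval reaches up to 3.69 reads or a value of 1.99. In HC replicate 3, 8 reads corresponded to a value of 2.94 (interval 1.27 to 5.78, counting error only).

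**Figure D1:**
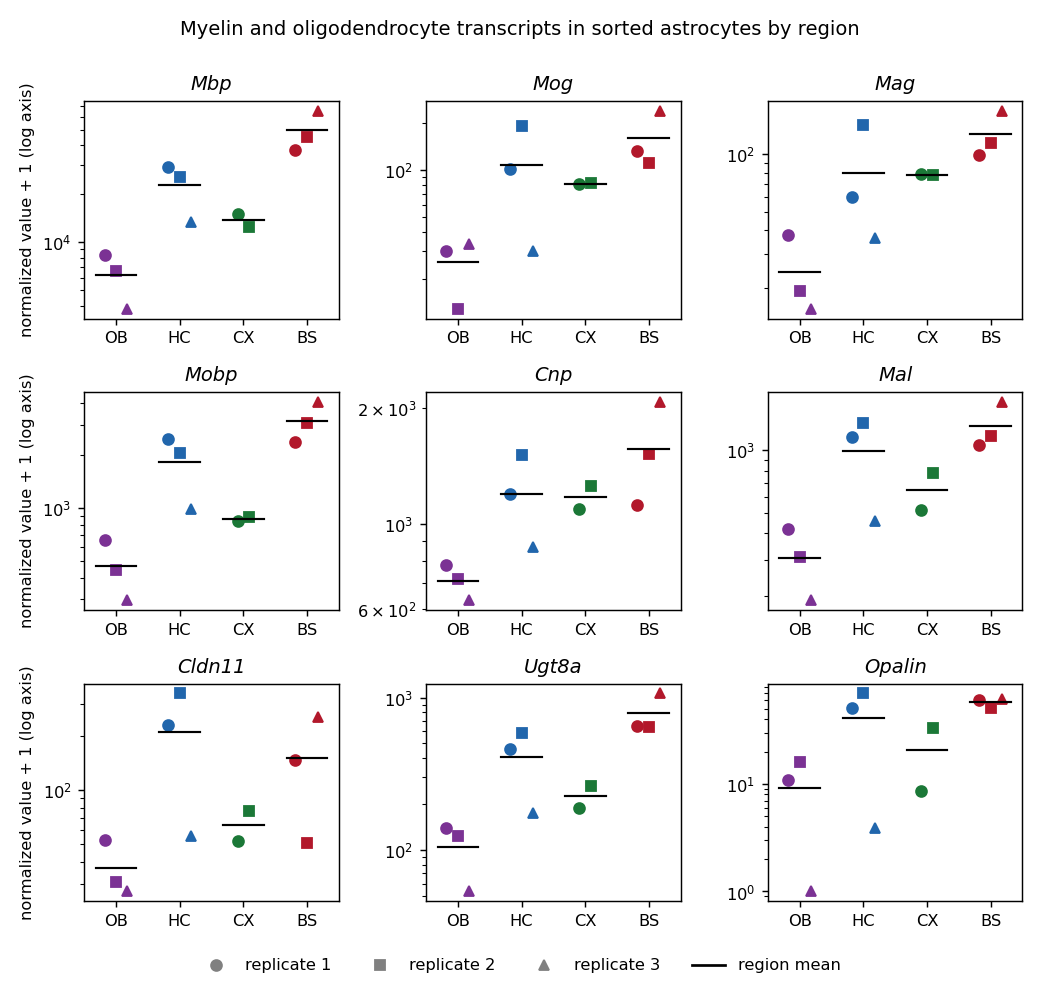
Normalized value plus 1 (log axis) of each of the 9 members in the 3 OB, 3 HC, 2 CX and 3 BS samples, with symbols for replicate numbers and a line at the region mean. Every OB point of Mbp, Mobp, Cnp, Mal and Ugt8a lies below every point of the other regions, and HC replicate 3 is the lowest HC point in all 9 panels.

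Levels of different genes were compared per kilobase of annotated exon. On that scale, Mbp had a mean level of 2934 over the 11 samples, Cnp 492, Mobp 352 and Mal 298. Ugt8a followed at 94.6, Cldn11 at 63.6, Mog at 55.4, Mag at 31.3 and Opalin at 17.6. Per kilobase, the mean level of Cnp was above that of Mobp in the OB (301 and 98.9) and CX (498 and 185). In the HC (505 and 393) and the BS (666 and 675) their means stood closer than the spread between replicates.

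The study set each region against the others, and the same comparison was made here with limma on log2(value + 1), where a call needed a value over 5 in 2 or more replicates of a region, more than 1.5-fold difference and p under 0.01 before adjustment. In the OB, 7 of 9 members were called lower and 0 higher, against 3.89% of all tested genes called lower and 4.15% called higher. The median log2 fold change was -2.03 over the members and 0.02 over all tested genes. Mal had a log2 fold change of -1.69 (standard error 0.37, adjusted p = 0.0169), Mag of -1.98 (0.44, adjusted p = 0.0186) and Mobp of -2.03 (0.46, adjusted p = 0.0201, limma). Mbp fell by 2.12 on the log2 scale (standard error 0.49, adjusted p = 0.0243, limma) and Ugt8a fell by 2.13 (0.51, adjusted p = 0.0273, limma). Mog fell by 2.15 (0.52, adjusted p = 0.0287, limma) and Cnp fell by 0.86 (0.22, adjusted p = 0.0357, limma). Cldn11, at -1.71 (0.59, adjusted p = 0.131), and Opalin, at -2.45 (0.98, adjusted p = 0.202, limma), did not pass. Every OB value lay below every other value for 5 of 9 members, against 3.24% of tested genes. The count of 7 became 9 without HC replicate 3 and 5 without OB replicate 3.

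In the BS, 3 of 9 members were called higher and 0 lower, against 3.98% and 5.05% of tested genes. Mbp rose by 2.02 on the log2 scale (standard error 0.51, adjusted p = 0.0343, limma), Ugt8a by 1.97 (0.55, adjusted p = 0.0529, limma) and Mobp by 1.83 (0.51, adjusted p = 0.0533, limma). The other 6 members did not pass, with log2 fold changes of 2.18 for Opalin, 1.56 for Mog, 1.42 for Mag, 1.25 for Mal, 0.77 for Cldn11 and 0.65 for Cnp. The median was 1.56 over the members, against 0.02 over all tested genes. In 2 of 9 members, Mbp and Ugt8a, every BS value lay above every other value, as it did in 3.7% of tested genes. The count of called members rested on single samples, with 0 members called without BS replicate 3 and 7 without HC replicate 2. At an adjusted p under 0.05 in place of the unadjusted rule, 1 member passed in the BS. The OB and BS comparisons share samples, each being part of the pool of the other, and are not independent. In the BS and CX, Rn45s, a ribosomal RNA precursor, took 18.0% to 25.6% of reads, against at most 2.93% in the OB and HC. With values scaled to totals without it, 7 members were called in the OB and 4 in the BS.

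**Figure D2:**
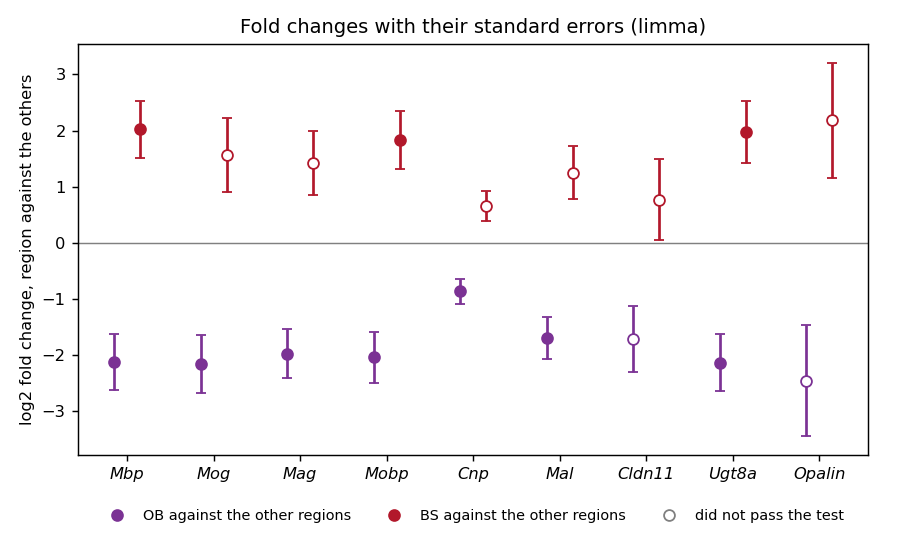
Log2 fold change of each member in the OB (purple) and the BS (red) against the other samples pooled, with bars of 1 standard error from limma. Filled points passed the test (7 in the OB, 3 in the BS) and open points did not, and all 9 members lie below 0 in the OB and above 0 in the BS.

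No member was called in the HC or in the CX by limma, where 1.28% and 2.77% of tested genes were called in either direction. None of the 9 had an unadjusted p under 0.05 in either region, and edgeR and DESeq2 on the recovered reads also called 0. The median log2 fold change over the members was 0.44 in the HC and -0.23 in the CX.

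With a mean fitted for each region, 7 of 9 members differed among the 4 regions at an adjusted p under 0.05, as did 16.5% of tested genes. The adjusted p (limma) was 0.000127 for Mobp and 0.000205 for Mbp, whereas Cldn11 (0.0745) and Opalin (0.18) did not pass. Between pairs, 7 members were higher in the BS than in the OB (7.55% of tested genes), with a median log2 fold change of 2.70. Mbp was 8.07-fold, Ugt8a 7.90-fold and Mobp 7.01-fold higher in that pair. In the HC, 5 members were higher than in the OB (3.49% of tested genes), namely Mbp, Mobp, Mal, Ugt8a and Cldn11. For Cldn11 this call, at a log2 fold change of 2.20 (adjusted p = 0.0461, limma), was lost in 13 of 21 other settings and left-out samples. Between the BS and the CX, 3 members were higher in the BS (5.44% of tested genes), Mobp, Mbp and Ugt8a, at log2 fold changes of 1.83, 1.82 and 1.79.

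For neighbours in the order of levels (OB, CX, HC, BS), no member passed with limma. At an adjusted p under 0.05, limma called 0 members higher in the CX than in the OB (2.08% of tested genes), although 7 had an unadjusted p under 0.05, and edgeR called 0 and DESeq2 2. Without HC replicate 3 the count was 3. For CX against HC, 0 members passed (1.23% of tested genes in either direction), 1 had an unadjusted p under 0.05, and edgeR and DESeq2 called 0. For BS against HC, 0 were higher (1.95% of tested genes), 3 had an unadjusted p under 0.05, edgeR called 0 and DESeq2 1. These comparisons share samples.

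Among 43 other genes of mature oligodendrocytes, 41 were tested. In the BS, 19 of these were called higher, against the 3.98% of all tested genes given above, and 0 lower, with a median log2 fold change of 1.61. In the OB 16 were lower and 2 higher, against 3.89% and 4.15%, with a median of -1.29. Plekhb1, a pleckstrin-homology protein, rose in the BS by 0.89 (adjusted p = 0.0361, limma), and Car2, a carbonic anhydrase, did not pass in any region. Klk6, a secreted protease, had the largest change in the BS, at a log2 fold change of 5.05 (standard error 0.80, adjusted p = 0.00203, limma). Its values were 61.0, 82.1 and 92.6 in the BS and at most 10.05 elsewhere. In the OB, Hapln2, a link protein of the matrix at nodes of Ranvier, fell by 4.01 on the log2 scale (0.70, adjusted p = 0.00411, limma). Its values lay between 0.789 and 1.09 in the OB, under the value of 3 reads, and between 7.71 and 124 elsewhere. Ermn, a cytoskeletal protein of myelinating cells, fell by 2.81 (adjusted p = 0.00878, limma) and Plekhh1 fell by 2.68 (adjusted p = 0.00486, limma). The 2 genes higher in the OB were Apod, an apolipoprotein, at 2.65 (adjusted p = 0.0367, limma), and Gsn, the actin-severing protein gelsolin, at 1.19 (adjusted p = 0.0419, limma).

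The transcription factors of the lineage did not share 1 direction. Of 11, 3 were lower and 2 higher in the OB (3.89% and 4.15% of all tested genes). In the BS 1 was higher (3.98% of tested genes). In the HC 1, Sox8, was lower (1.28% of tested genes in either direction). Myrf, which switches on myelin genes in maturing cells, fell in the OB by 1.67 (adjusted p = 0.0231, limma), and St18, a zinc finger factor, fell by 3.10 (adjusted p = 0.000368, limma). Nkx6-2, a homeodomain factor, was also called lower there, with values of 1.09, 0.789 and 0. Sox10, shared by oligodendrocytes and neural crest glia, rose in the OB by 1.86 (adjusted p = 0.024, limma), and Sox8 rose there by 0.82 (adjusted p = 0.0852, limma). Sox10 values were 168, 206 and 213 in the OB and from 18.7 to 139 in the other samples. Nkx6-2 rose in the BS by 3.37 (adjusted p = 0.0549, limma). Olig1 and Tcf7l2, with Sox8 the highest of the list, did not pass in any region.

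Of 16 genes of oligodendrocyte precursors and premyelinating cells, 2 were higher and 1 lower in the BS, and 1 was higher and 1 lower in the OB. Of all tested genes, 3.98% were called higher and 5.05% lower in the BS, and 4.15% and 3.89% in the OB, and 1 gene of 16 is close to these shares. Bcas1, expressed in early myelinating cells, followed the members, with a fall of 2.17 in the OB (adjusted p = 0.0125, limma) and a rise of 1.97 in the BS (adjusted p = 0.0384, limma). Tnr, the matrix protein tenascin-R, rose in the OB by 1.54 (adjusted p = 0.0768, limma), and Lhfpl3 in the BS by 1.84 (adjusted p = 0.0517, limma). In the HC, Neu4, a sialidase, was called lower, with values of 0, 0.913 and 0, and in the CX 1 gene, Vcan, was called higher. Itpr2 and Sox6 were called in no region.

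A list of 16 genes of peripheral myelin and olfactory ensheathing glia, 14 of them tested, had its calls in the OB mostly higher. Ensheathing glia are neural crest derivatives that wrap olfactory axons and do not make myelin there. In the OB 9 were called higher, against 4.15% of all tested genes, and 0 lower, with a median log2 fold change of 3.05. Npy (7.09), Frzb (6.52), Cldn19 (5.86) and Foxd3 (4.81) had the largest log2 fold changes, and Npy is known also as a neuropeptide of interneurons. Fabp7, which astrocytes and their progenitors also make, encodes a fatty-acid-binding protein. It stood at 14360 ± 2110 (SD, n = 3) in the OB. Cdh19, a cadherin of the neural crest lineage, reached 863 ± 44.0 (SD, n = 3) there. In the BS, Cdh19 and Frzb were called lower.

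**Figure D3:**
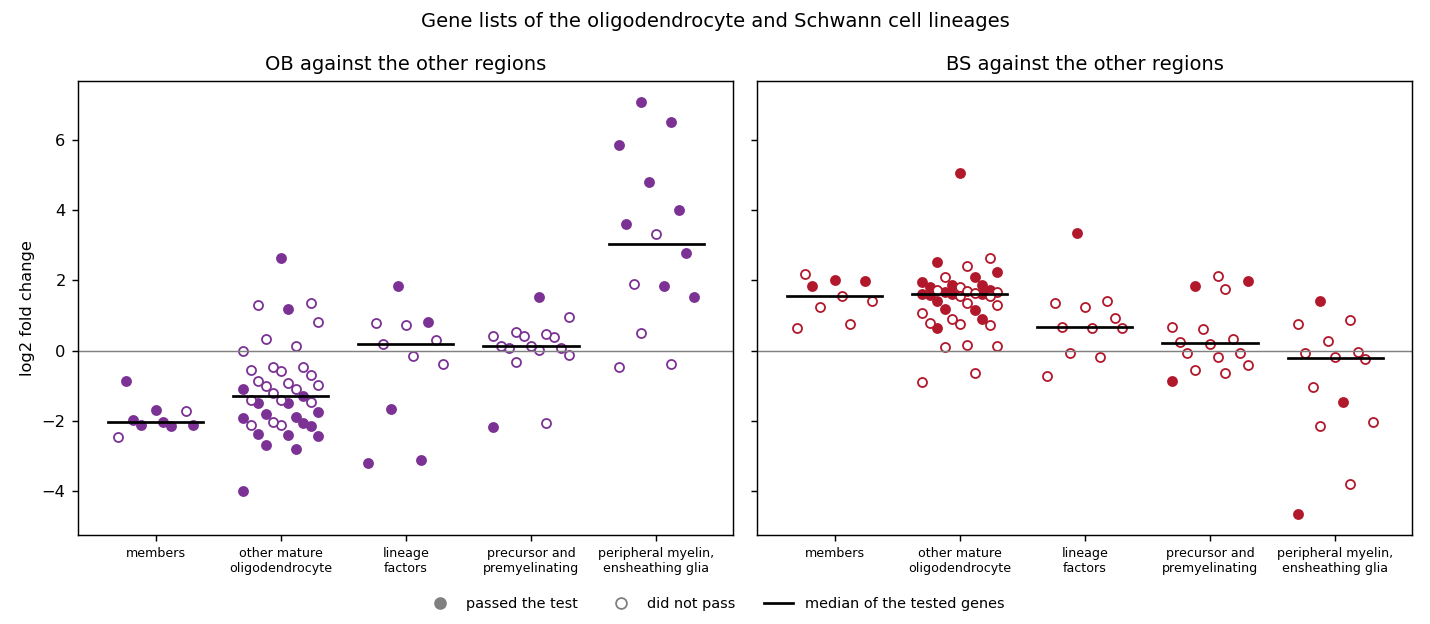
Log2 fold changes of single genes in the OB (left) and the BS (right) against the other samples pooled, for the 9 members and 4 gene lists, with filled points for genes that passed the test and a line at the median. In the OB the medians of the members (-2.03) and of other mature oligodendrocyte genes (-1.29) lie below 0 and that of peripheral myelin and ensheathing glia genes (3.05) above it.

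Replicates of a region differed for all members together. HC replicate 3, the deepest library, was the lowest of the HC for 9 of 9 members, at 0.0498 (Opalin) to 0.640 (Cnp) times the mean of the other 2. For 6 members, Mog, Mag, Cnp, Mal, Ugt8a and Opalin, it also lay below both CX values. BS replicate 3 was the highest of the 11 samples for 7 of 9 members, the exceptions being Cldn11 and Opalin. The mean log2(value + 1) over the members was 6.92 ± 0.59 for OB (SD, n = 3), 8.17 ± 0.28 for CX (SD, n = 2), 8.67 ± 1.02 for HC (SD, n = 3) and 9.40 ± 0.43 for BS (SD, n = 3). The spread between HC replicates exceeded the difference between the HC and CX means. Of the variance of log2 values over the 11 samples, from 44.7% (Opalin) to 89.1% (Mbp) lay between regions.

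Markers of microglia and endothelial cells, and to a lesser degree of neurons and oligodendrocyte precursors, varied with the members between replicates. The 9 microglial markers summed to 1804 in HC replicate 3 and to 4755 and 5045 in the other HC samples, and the 7 endothelial markers to 357, against 2328 and 1164. Neuronal markers summed to 1358 in HC replicate 3, against 2519 and 2142, and precursor markers to 319, against 395 and 533. In the OB, replicate 3 was lowest for the sums of members, microglial (1507), endothelial (241), neuronal (1898) and precursor markers (659). Markers of the choroid plexus, 7 of 7 of which were lower in the OB, did not drop in HC replicate 3, with sums of 145372, 71934 and 136102 in HC replicates 1 to 3. Their sums were 86.1 to 163 in the OB, where Folr1 was at 0 in all 3 samples. They were 1751 to 5035 in the CX and from 51500 to 243201 in the BS. Outside the OB these sums follow Ttr, at 132046 of 145372 in HC replicate 1. Sums of the astrocyte markers ranged from 234740 to 280692 for OB, from 561412 to 636418 for CX, from 274406 to 466755 for HC and from 97870 to 287214 for BS. Slc1a2 made up most of these sums, at 541892 of 636418 in CX replicate 1 and 61764 of 97870 in BS replicate 1. In the BS, 3 of the 10 markers had a positive and 7 a negative log2 fold change. Of the 10, 1 was called, Slc1a3, lower in the BS. Of all tested genes, 4.15% were called higher and 3.89% lower in the OB, and 3.98% and 5.05% in the BS. In either direction, 1.28% were called in the HC and 2.77% in the CX. A list with 1 called gene is not read as a result about that list. Of 10 neuronal markers, 4 were higher and 3 lower in the BS. In the OB 1 (Gad1) was higher and 1 (Nefl) lower, and in the CX 1 (Slc17a6) was lower. Of 8 precursor markers, Tnr was higher in the OB, Lhfpl3 higher in the BS and Neu4 lower in the HC. Microglial sums spanned 1507 to 3814 for OB, 2078 to 2649 for CX, 1804 to 5045 for HC and 1448 to 2953 for BS, with P2ry12 called lower in the BS. Endothelial sums spanned 241 to 1109 for OB, 396 to 1296 for CX, 357 to 2328 for HC and 1063 to 1690 for BS. The part of any of these in the members' values was not tested.

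After the mean of each region was subtracted, the correlation over the 11 samples between the member mean and the mean of a list, given as a description, was 0.97 for other mature oligodendrocyte genes, 0.89 for microglial and 0.89 for endothelial markers. It was 0.70 for precursor, 0.57 for neuronal, -0.19 for choroid plexus and -0.31 for astrocyte markers. For lineage factors it was 0.75, for the precursor and premyelinating list 0.81 and for peripheral and ensheathing glia genes 0.69. Taken gene by gene, the median within-region correlation was 0.73 for other mature oligodendrocyte genes, 0.84 for microglial and 0.83 for endothelial markers. Without subtracting region means, the correlations of list means were 0.94 for other mature oligodendrocyte genes, 0.80 for choroid plexus, 0.76 for endothelial, 0.24 for microglial, 0.20 for neuronal, 0.10 for precursor and -0.47 for astrocyte markers. For lineage factors they were 0.70, for the precursor and premyelinating list 0.42 and for peripheral and ensheathing glia genes -0.66. These values share libraries, size factors and sorting. Each member correlated with the mean of the other 8 at 0.83 (Cldn11) to 0.99 (Mal), and at 0.64 (Mog) to 0.98 (Mal) after region means were subtracted.

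**Figure D4:**
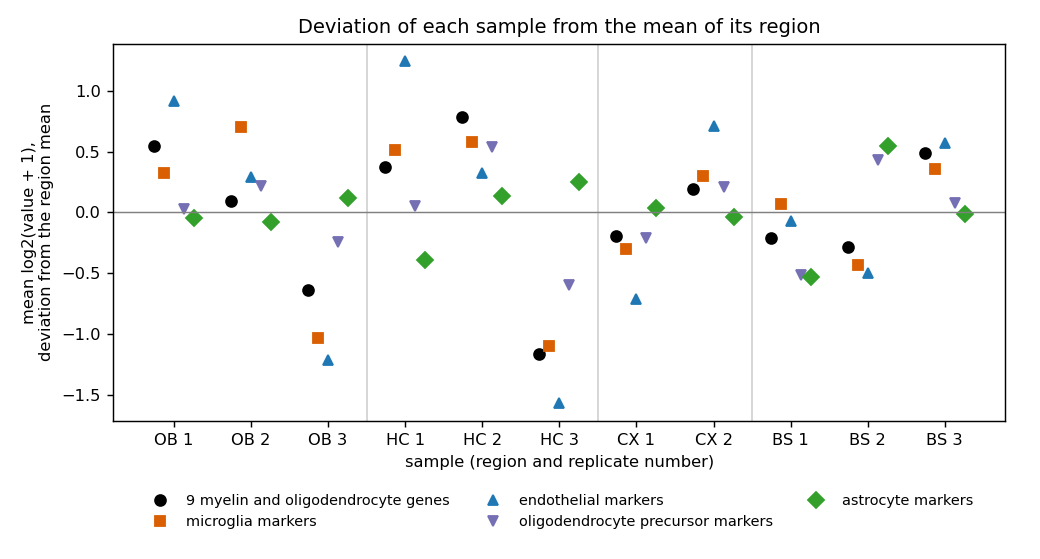
Mean log2(value + 1) of the 9 members and of 4 marker lists in each sample, as the deviation from the mean of its region. In HC replicate 3 the members (-1.16), microglial (-1.09), endothelial (-1.57) and precursor markers (-0.60) lie below their region means while astrocyte markers (0.25) do not.

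The genes whose pattern was most like the member mean over the 11 samples were Fa2h, the hydroxylase of myelin fatty acids (r = 0.977), Tmem88b (0.975), Prr18 (0.974), a septin listed under the name 4-Sep (0.969) and Pex5l (0.966). Tspan2 (0.965), Tubb4a (0.963), Kndc1 (0.963), S1pr5 (0.958) and Evi2a (0.958) followed. Of these 10, 7 belonged to the list of other mature oligodendrocyte genes. After region means were subtracted, Tspan2, a tetraspanin of oligodendrocytes, was first (0.989), followed by Klc1 (0.982), E130311K13Rik (0.976), Arhgdib (0.968) and Ctss, a cathepsin of microglia (0.965). The 100 genes with the highest r over all samples, out of 13866 tested genes other than members, held 19 of 41 other mature oligodendrocyte genes. They also held 1 of 11 lineage factors (Myrf), 1 of 16 precursor genes (Bcas1), 1 of 10 neuronal markers (Nefl) and 0 of 14 peripheral and ensheathing glia genes. After region means were subtracted, the top 100 held 12 of 41 other mature oligodendrocyte genes. They also held 3 of 9 microglial markers, 1 of 7 endothelial markers and 1 of 14 peripheral and ensheathing glia genes.

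Read counts on genes lay between 2830746 and 14151670 per sample, with a median of 5552215. The value of 1 read ranged from 0.367 to 2.10 between samples. BS replicates 2 and 3 were the shallowest. The lowest member count outside Opalin was 15 reads, of Mog in OB replicate 2 (value 11.8, exact Poisson 95% interval 6.63 to 19.5).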

How the data were processed

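Total RNA of sorted eGFP-positive astrocytes had been made into libraries with the NuGEN Trio RNA-Seq system, which depletes rRNA. The authors checked reads with FastQC, mapped them with STAR 2.5.0a to mm10, counted them on UCSC gene models and normalized the counts with DESeq2 1.20.0. The deposited unit is a normalized signal, the count divided by a size factor of the sample. Values above 0 were whole multiples of 1 read in 100% of cases, so the reads were recovered, between 2830746 and 14151670 per sample.

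After edgeR's filterByExpr, 13875 genes were tested. The two-sided test was that of limma 3.58.1 (R 4.3.3, with a mean-variance trend) for log2(value + 1), adjusted after Benjamini and Hochberg over all tested genes, once for each region against the other samples pooled and once with a mean for each region. Fold changes on this scale understate those of low genes. Alternatives included edgeR 4.0.16 and DESeq2 1.42.0 on the recovered reads. Coordinates and exon lengths are from GENCODE (GRCm38) and promoters from RefSeq. Python 3.11.15 with pandas 2.3.3 was used for descriptions.

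The members, lists and tests were chosen with earlier results of these data known. Named were all members, of each list the 3 genes with the highest mean value and the 4 called with the largest change, and the genes most like the member mean. Apod, Gsn, Vcan and the marker genes were named after their values were seen. Some genes of the lists are counted but not reported here by name.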

Additional observations from a re-analysis of the deposited data

How the results depend on the processing

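No called result of a member changed direction under the alternatives that were run. Genes of the other lists were not checked in this way. In the BS, 3 members were called, 1 at an adjusted p under 0.05 and 7 against the mean of the 3 other region means, and from 0 (without BS replicate 3) to 7 (without HC replicate 2) when single samples were left out. Among the 4 regions, 7 differed, 4 at an adjusted p under 0.01, 4 without the mean-variance trend, and 4 (without OB replicate 2) to 9 (without HC replicate 3) with left-out samples. Between OB and HC, 5 differed, 2 at an adjusted p under 0.01, 2 without the trend, 8 with DESeq2, and 2 (without OB replicate 3 or HC replicate 2) to 8 (without HC replicate 3) with left-out samples. DESeq2 called 2 between OB and CX, where left-out samples gave 0 to 3, and 1 between HC and BS, against 0 with limma for both (7 and 3 at an unadjusted p under 0.05). Between CX and BS, 3 differed, with 0 (without CX replicate 1), 1 (without CX replicate 2) to 4 (without HC replicate 3). A left-out CX sample leaves 1, which is assumed to vary like the other groups. In the OB, 7 were called, and 5 to 9 with left-out samples, by the rule on unadjusted p. Without OB replicate 3, the adjusted p of these 7 lay between 0.073 (Mog) and 0.192 (Ugt8a, limma). Without OB replicate 2 it lay between 0.08 (Mal) and 0.202 (Mog, limma). Without the mean-variance trend it was over 0.05 for all of these 7 but Mag. With a replicate block it was over 0.05 for Mbp, Mog, Cnp and Ugt8a, and under it for Mag, Mobp and Mal. With edgeR and DESeq2 it was under 0.05 for all 7. The cause of these changes was not tested.

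Of 15 pairs of samples of different regions with the same replicate number, correlations of deviations lay between -0.16 and 0.25. Of these, 3 were over 0.1. Pairs with different numbers were not compared, so these values cannot tell whether the numbers pair the samples. The sources do not state it. With a replicate block, 7 members were called in the OB, 3 in the BS and 8 among the 4 regions, and 8 differed between OB and BS, 4 between OB and HC and 3 between CX and BS.

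For single members, left-out samples gave 541 values on the same side of the threshold, 31 that no longer passed and 22 that newly passed, and other alternatives gave 512, 20 and 26. Opalin, Mog, Mag and Cldn11 rest on few reads in some samples, which limits what can be said of them at this depth. Mag had 23 reads in OB replicate 2, and Cldn11 had 25 in BS replicate 2.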
